A study of Mus musculus with 6 samples.

Results

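Csmd1, Dlg2, Lrp1b, Ptprd, Cntnap2, Nrxn3, Ctnna2 and Dlgap1 are 8 very long genes known mainly from neurons, and they were taken as genes whose introns could show the background of chromatin profiling in fibroblasts. Their regions were the rows of each deposited table whose nearest gene was one of the 8. For TGF-b against NC there were 801 such regions of 170890 (T set) and 271 of 52723 (S set), and 894 of 180118 and 222 of 52579 for the siRNA against TGF-b. All 8 genes had regions in all 4 tables.

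The series holds 6 CUT&Tag libraries, made from primary cardiac fibroblasts of mouse heart, 3 in a T set and 3 in an S set. CUT&Tag uses an antibody to bring a transposase to chromatin, so that reads collect where the target of the antibody sits. Each set held 1 library of NC cells, 1 of cells given TGF-b and 1 of cells given TGF-b with an siRNA, which the labels write as TGF-b+SiTAZ for T and TGF-b+SiSRF for S. The antibody is named in no label. The study profiled TAZ and SRF, and the letters T and S were taken to stand for them, which these tables cannot check. The study's text describes an siRNA against Piezo2 in place of the names in the labels. The design text of the series mentions Tet3 knockout by a Cre virus with TGF-b, but no library is labelled as a knockout. The cells were primary and not a clonal line, and how many mice they came from was not given in the sources used here. With 1 library per treatment and set, no treatment could be tested, and every value below describes these libraries.

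TAZ is a co-activator that reaches DNA mainly through TEAD factors, and SRF binds the CArG box. Both act downstream of mechanical signals when TGF-b turns fibroblasts into myofibroblasts, and their known targets include genes of the cytoskeleton and the matrix. Most of the 8 genes encode proteins of synapses or cell adhesion, and Lrp1b and Csmd1 encode large membrane proteins. Their introns are long and mostly free of exons and promoters, so a region there counts sequence far from any start site unless the gene has an internal start.

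Sequences before 2 of the gene starts are shown because regions of Nrxn3 and Ctnna2 overlapped the 300 bases around these starts in both sets, which for Nrxn3 were its densest region in either set and for Ctnna2 its densest in the S set. They were read from RefSeq promoters of GRCm38.p6, 1 entry for each start, and end at the base before the transcript start. Capitals mark CG pairs.
Nrxn3, chr12:89812233-89812482, plus strand: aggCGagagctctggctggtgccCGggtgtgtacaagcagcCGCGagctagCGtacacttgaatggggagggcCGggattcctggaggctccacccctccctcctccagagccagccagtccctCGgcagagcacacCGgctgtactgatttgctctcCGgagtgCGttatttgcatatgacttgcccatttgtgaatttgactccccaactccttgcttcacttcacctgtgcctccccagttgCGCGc
Ctnna2, chr6:77979700-77979917, minus strand: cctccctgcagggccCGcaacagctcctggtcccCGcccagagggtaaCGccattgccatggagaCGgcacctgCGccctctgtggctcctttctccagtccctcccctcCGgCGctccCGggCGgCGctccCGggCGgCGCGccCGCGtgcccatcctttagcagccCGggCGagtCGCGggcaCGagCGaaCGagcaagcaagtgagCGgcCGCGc
The starts were matched by transcript, ENSMUST00000110130 for Nrxn3 and ENSMUST00000160894 for Ctnna2, since the tables use another build, GRCm39. In the 300 bases of the full RefSeq entry, Nrxn3 held 16 CG pairs and Ctnna2 held 38, beside a median of 7 over 32851 promoters of all genes. The T set region of Nrxn3 ended 88 bases before its start, and that of Ctnna2 ran from 65 bases before to 78 bases after its start. RefSeq entries were found for 5 of the 8 genes, 11 in all. The letters GGAATG of a TEAD site, on either strand, were in 1 of the 11, an entry of Dlg2, and in 14.7% of all promoters. The CArG box was in none of the 11 and in 1.63% of all promoters. Lrp1b, Ptprd and Csmd1 had no entry.

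The regions of the 8 genes were nearly all intronic, and in 3 of the 4 tables they were about as frequent as regions over the chromosomes at large. The annotation put 97.4% of them in introns in the T set table of TGF-b against NC, against 44.5% of all regions there, and between 95.9% and 97.9% in the other tables. Together the genes span 13.75 Mb, which is 0.505% of the 2720 Mb covered by the 21 chromosomes. They held 0.469% of the T set regions and 0.514% of the S set regions in TGF-b against NC, and 0.496% and 0.422% for the siRNA against TGF-b. Per Mb of gene, that is 58.3 regions (T set) and 19.7 (S set) for TGF-b against NC, beside 62.8 and 19.3 per Mb of chromosome. In the siRNA tables the genes held 65.0 and 16.1 regions per Mb, beside 66.2 and 19.3.

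How this compares with genes in use differed between the sets. In the T set, 30 active fibroblast genes (collagens, Fn1, Postn, Acta2, Vim and others) held 109 regions per Mb in TGF-b against NC and 88.6 for the siRNA against TGF-b, more than the 8 genes in both tables. Only 100 of their 151 and 79 of their 123 regions were in introns. Promoter regions, which can lie outside the gene span, were 27 and 18 of them, against 8 of 801 and 3 of 894 for the 8 genes. Regions per Mb in introns alone were not computed, so this difference cannot be read as one of intronic background. The same 30 genes held, in the S set, 10.1 and 17.3 per Mb, with only 14 and 24 regions in all, below the 8 genes in the first table and above them in the second. Long genes that fibroblasts use, such as Lpp, Ext1 and Prkg1, 16 in all, held 58.8 and 55.8 per Mb (T set) and 10.6 and 11.7 (S set). The other 20 long neuronal genes held fewer regions than the 8 in every table, between 43.7 and 51.6 per Mb (T set) and between 13.5 and 16.5 (S set). Widely expressed relatives of the 8 genes, such as Lrp1, Ctnna1 and Dlg1, held 112 and 113 per Mb in the T set and 16.2 in both tables of the S set. That list has 7 genes over 0.68 Mb, so it rests on few regions, 76 and 77 in the T set and 11 in each table of the S set.

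Read density is given as normalized reads per kb of a 2 kb window, averaged over both libraries of a table, and a region counts as low when it lies under the lower quartile of all regions of its table (2.71, 3.67, 2.39 and 3.72, in the order T and S for TGF-b against NC, then T and S for the siRNA). In the T set the 8 genes were more often low than the active fibroblast genes, as were other long genes. Of their 801 regions in TGF-b against NC, 245 were low (30.6%, Wilson interval 27.5% to 33.9%). The share was 29.8% in intergenic regions, 22.7% (19.3% to 26.4%) in the long fibroblast genes and 11.3% (7.15% to 17.3%) in the active fibroblast genes. In the siRNA table, low regions were 246 of 894 (27.5%, 24.7% to 30.5%), beside 28.8% of intergenic regions, 25.4% (21.9% to 29.4%) of the long fibroblast genes and 13% (8.17% to 20.1%) of the active genes. The other 205 genes of 500 kb or more lay near the 8, with 28.3% and 27.0% low regions. The intervals of the 8 genes and the active genes did not overlap in either T set table, whereas those of the 8 genes and the long fibroblast genes overlapped in the siRNA table.

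For TGF-b against NC the 8 genes were less often low than all regions and the long fibroblast genes in the S set, so that the name of a low background was not borne out. Of the 271 regions in TGF-b against NC, 34 were low (12.5%, 9.12% to 17.0%), beside 24.7% of intergenic regions, 46.9% (37.4% to 56.7%) of the long fibroblast genes and 35.7% of the active genes, 5 of 14 regions, whose interval (16.3% to 61.2%) overlapped that of the 8 genes. In the siRNA table, low regions were 45 of 222 (20.3%, 15.5% to 26.0%), beside 26.8%, 44.4% (35.4% to 53.8%) and 20.8% (9.24% to 40.5%), so that the active genes lay beside the 8 genes there. The median density of the 8 genes was 5.41 and 5.17 in the S set, above the medians of all regions (4.90 and 4.97). In the T set it was 3.39 and 3.19, below those of all regions (3.99 and 3.49). The other long neuronal genes went the same way, with 30.6% and 25.6% low regions (T set) and 16.1% and 17.6% (S set). All intervals cover counting error only, and neighbouring windows share reads where regions lie within 2 kb, as 15.5% and 17.2% of neighbours did in the T set and 5.32% and 6.07% in the S set.

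**Figure D1:**
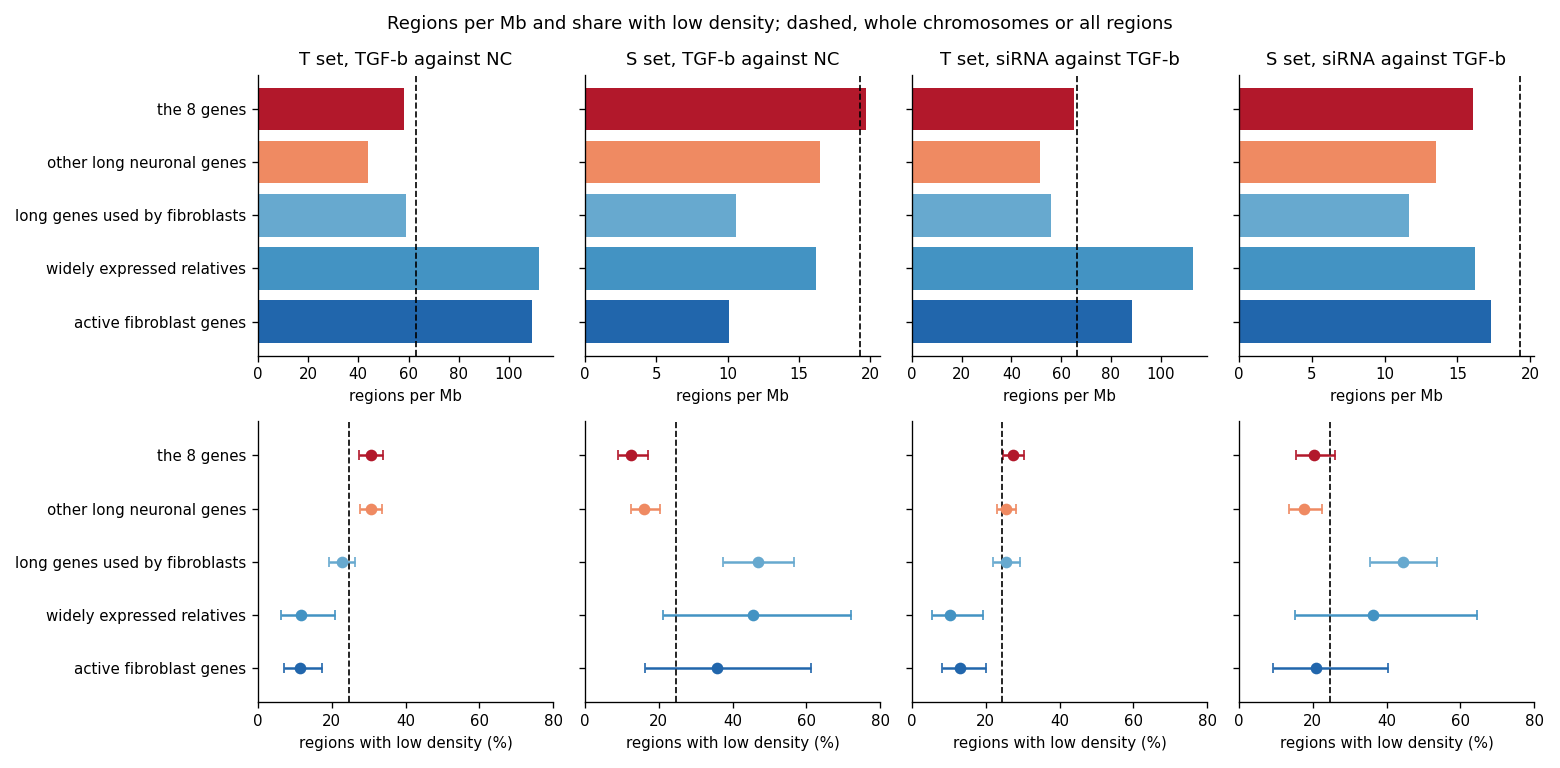
Bars in the upper row give regions per Mb of gene for the 8 genes and 4 other lists in each table, with the dashed line at regions per Mb of all chromosomes. Points in the lower row give the percentage of regions with low density, with Wilson 95% intervals and the dashed line at all regions. The 8 genes lie near the chromosome level in the first 3 upper panels (58.3 against 62.8 in the first) and below it in the last (16.1 against 19.3), and in the lower row they are above the active fibroblast genes in the T set (30.6% against 11.3%) and below them in the S set for TGF-b against NC (12.5% against 35.7%), there with overlapping intervals.

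Few reads stood behind the regions of these tables, those of the 8 genes included. In the library with more reads, the median region of the 8 genes held 9 reads in TGF-b against NC and 8 in the siRNA table of the T set, and 12 in both tables of the S set, beside 10, 9, 12 and 12 over all regions. Of the 801 regions, 45 had over 20 reads in either library (5.62%), against 38.4% of the regions of the active fibroblast genes and 17.6% of all regions. Of the 271 S set regions 15 did (5.54%, against 11.8% of all regions and 28.6% of the 14 active gene regions). At 478 of the 801 T set regions at least 1 library held 3 or fewer reads (59.7%, against 49.3% of all regions), as at 569 of the 894 in the siRNA table (63.6%, against 57.9%). That was so at 44 of 271 regions of the S set for TGF-b against NC (16.2%, against 27.5%) and at 56 of 222 for the siRNA (25.2%, against 26.8%). The same stretch was seldom called in both libraries of a table, at 9 of 801 regions (1.12%) in the T set, against 5.42% of all regions and 6.62% of the active gene regions. In the S set it was so at 2 of 271 (0.738%, against 2.19% of all regions), and in the siRNA tables at 6 of 894 (0.671%, against 4.21%) and 0 of 222 (against 3.90%). The sets rarely met, as 17 of the 271 S set regions (6.27%) overlapped a T set region in TGF-b against NC, which is 2.12% of the T set regions, beside 12.7% and 3.98% for all regions. For TGF-b against NC, the other long neuronal genes lay near the 8. In the T set, 4.27% of their regions had over 20 reads, 57.8% had 3 or fewer in a library and 1.49% were called in both. The other genes of 500 kb or more gave 9.83%, 56.0% and 2.63%, and the long fibroblast genes 22.5%, 45.9% and 5.89%. The share of S set regions overlapping the T set was 6.50%, 7.42% and 11.2%, in the same order.

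Comparing TGF-b with NC, the 8 genes as a group were lower in the TGF-b library, as were all regions of the tables, a direction that went to 0.03 in the T set with all regions centred on 0 and to 0.00 in the S set without the authors' normalization line, where the S set median of all regions turned to 0.36. The T set median log2 ratio was -0.62 (rank interval -0.80 to -0.52), beside -0.65 for all regions. Of the 801 regions, 330 were at least 2-fold lower (41.2%, against 42.1% of all regions) and 173 at least 2-fold higher (21.6%, against 17.3%). With all regions centred on 0 the balance turned, to 226 lower and 239 higher. The S set median was -0.57 (-0.81 to -0.41), beside -0.20 for all regions. There 99 of 271 regions were at least 2-fold lower (36.5%, against 26.7%) and 27 at least 2-fold higher (9.96%, against 17.4%), counts that became 58 and 54 without the authors' line. This was not particular to the 8 genes. The S set median was -0.53 in the long fibroblast genes (36.7% lower, 12.2% higher) and -0.44 in the other long neuronal genes (31.4% and 12.4%). It was -0.40 in the other genes of 500 kb or more (30.6% and 12.8%), and -0.02 over the 14 regions of the active fibroblast genes. Nearly every region is in a table because 1 library alone called it. These medians and 2-fold counts therefore in part restate which library called more regions and are no separate result. Of the 801 regions in the T set, 549 were called in NC alone (68.5%, against 68.9% of all regions) and 243 in TGF-b alone. Of the 271 S set regions these were 172 (63.5%, against 50.9%) and 97. Per Mb of the 8 genes, the NC library had 40.6 called regions and the TGF-b library 18.3 in the T set, beside 46.7 and 19.5 per Mb of chromosome. The S set values were 12.7 and 7.20, beside 10.3 and 9.50.

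With the siRNA against TGF-b, the sets differed in sign. The T set median was 1.14 (0.99 to 1.26), beside 0.97 for all regions, and it was 0.16 with all regions centred on 0 and 0.68 without the line. Of the 894 regions, 642 were called in the siRNA library alone and 246 in TGF-b alone (27.5%, against 25.3% of all regions). The median and the 2-fold counts in part restate these calls. With the line and no centring, 474 of 894 regions were at least 2-fold higher in the siRNA library (53.0%, against 49.7%) and 143 at least 2-fold lower (16.0%, against 16.2%), or 289 and 224 with all regions centred on 0. The lower regions numbered 50 once every count under 3 was raised to 3. The S set median was -0.26 with an interval that spanned 0 (-0.49 to 0.08), beside -0.21 for all regions. Of the 222 regions, 30 were at least 2-fold higher (13.5%, against 15.1%) and 66 at least 2-fold lower (29.7%, against 27.8%). The siRNA libraries called 47.1 regions per Mb of the 8 genes (T set) and 8.95 (S set), beside 49.4 and 10.5 per Mb of chromosome. The shares past 2-fold in the siRNA tables and in the T set table of TGF-b against NC lay within 4.3 percentage points of those of all regions, and for TGF-b against NC of the S set they were 9.8 points above (lower regions) and 7.4 points below (higher regions). In that S set table the lists of other long genes lay on the same side of all regions.

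Both tables of a set contain the same TGF-b library. At the 265 T set stretches of the 8 genes present in both tables the median reads were 3, 7 and 2 in NC, TGF-b and siRNA. At the 105 such stretches of the S set they were 6, 14 and 5. Every stretch called in the TGF-b library is in both tables, so that library had a part in choosing them, and the middle value is no finding. All regions gave 6, 9 and 4 (T set) and 5, 13 and 5 (S set).

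The 8 genes differed among themselves. For each gene and set 1 of the regions below was picked for the largest ratio of TGF-b against NC and is marked as chosen for its ratio, so that its direction and interval restate the choice. Regions given with reads of all 3 libraries are in both tables of a set. The TGF-b library had a part in choosing such stretches, so a TGF-b value above another library there is no finding by itself. Nrxn3 encodes a presynaptic neurexin with an upstream promoter for its long form and an internal one for its short form, and it spans chr12:88689646-90301709. It held the most regions per Mb of the 8 in the T set, 70.1 and 85.6, and 23.6 and 21.7 in the S set. Among 213 genes of 500 kb or more it ranked 47 and 25 (T set) and 25 and 30 (S set). The region with the highest density of Nrxn3, at its internal start, was chr12:89778944-89779165 in the T set. Its reads were 8 in NC, 34 with TGF-b and 16 with the siRNA added. TGF-b was above NC there, with a log2 ratio of 2.02 (interval 1.07 to 3.24), and the ratio of siRNA against TGF-b was -0.57 (-1.46 to 0.23). The TGF-b library had a part in choosing such stretches, so its high value is no finding. The same start held 26, 28 and 49 reads in the S set. Its log2 ratio was -0.44 for TGF-b (-1.19 to 0.33) and 0.81 for the siRNA (0.16 to 1.49). The siRNA library was thus above TGF-b, whereas TGF-b and NC did not differ beyond counting error. Away from the start, an intron 5 region at chr12:89285373-89285547, chosen for its ratio, held 0, 15 and 3 reads in NC, TGF-b and siRNA of the T set, at least 4.60-fold more with TGF-b, taking NC at 3 reads. In intron 6 of the S set, chr12:89181991-89182084, chosen for its ratio, held 13 reads in NC and 3 in TGF-b (log2 ratio -2.40, -4.41 to -1.0).

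Ptprd, a receptor tyrosine phosphatase that organizes synapses, spans chr4:75859475-78129976 and had the lowest median density of the 8 in both tables of TGF-b against NC. It had 111 T set regions in TGF-b against NC, of which 54 were low (48.6%, 39.6% to 57.8%), the highest share of the 8, and a median log2 ratio of -1.23 (-1.60 to -0.69), the lowest. Its 23 S set regions had a median of 0.29 (-1.10 to 0.68). It had the fewest S set regions per Mb in TGF-b against NC, 10.1, rank 141 of the 213 long genes. Its densest T set region, in intron 5 of 6 at chr4:77280395-77280476, held 34 reads in NC and 16 in TGF-b. In intron 2, chr4:77620430-77620625, chosen for its ratio, held 23 and 0 reads, at least 5.29-fold lower in TGF-b with that library taken at 3 reads. Its densest S set region, in intron 3 at chr4:77545423-77545540, held 18 reads in NC and 9 in TGF-b (log2 ratio -1.49, -2.69 to -0.44), whereas chr4:77362714-77362919 in intron 4, chosen for its ratio, held 3, 17 and 3 reads in NC, TGF-b and siRNA. The T set region nearest a start, chr4:76024115-76024190, lay 1480 bases into an internal transcript and held 8 reads in NC and 0 in TGF-b. For TGF-b against NC, 0 of the 23 S set regions of Ptprd overlapped a T set region. The share was 6.27% for the 8 genes, 7.42% for the other genes of 500 kb or more and 12.7% for all S set regions. Within 3 kb of a start lay 0 of the 23, against 3.69%, 5.64% and 14.7% in the same order, and Csmd1 also had 0 there, of 35. With so few regions, neither sets Ptprd apart.

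Cntnap2 encodes a neurexin relative that clusters potassium channels along axons, and spans chr6:45036995-47281147. It had the most regions of the 8 in every table, 141, 58, 165 and 43. Its median log2 ratio for TGF-b against NC was -0.32 (-0.69 to -0.05) in the T set, the nearest to 0, and -0.68 (-0.99 to -0.36) in the S set. Its densest T set region, in intron 2 at chr6:45422378-45422495, held 6, 16 and 29 reads in NC, TGF-b and siRNA, with TGF-b above NC and siRNA above TGF-b, each within its own table. Its densest S set region, in intron 4 at chr6:45951865-45951992, held 19 reads in NC and 17 in TGF-b, with no difference beyond counting error (log2 ratio -0.71, -1.64 to 0.21). At chr6:46515221-46515402, chosen for its ratio, in intron 13, reads of 17, 4 and 11 were found in NC, TGF-b and siRNA of the S set, TGF-b being lowest. In intron 14, chr6:46741854-46741931, chosen for its ratio, held 20 reads in NC and 1 in TGF-b of the T set (log2 ratio -3.24, -6.72 to -1.61). The T set region of Cntnap2 539 bases after the first start, chr6:45037496-45037573, held 2 reads in TGF-b and 3 with the siRNA, and the S set region 277 bases after a late internal start, chr6:47221591-47221737, held 7 reads in NC and 13 in TGF-b (log2 ratio 0.23, -0.97 to 1.60).

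Dlg2 and Dlgap1 are partners of the postsynaptic density, a scaffold of the PSD-95 family and a protein that binds such scaffolds. Dlg2 spans chr7:90126439-92098455. In the S set it stood lowest of the 8 after TGF-b, with a median log2 ratio of -1.22 (-1.57 to -0.63), and 24 of its 40 regions there were at least 2-fold lower (60.0%, against 26.7% of all regions), a count read along the authors' line, without which the lower regions of all 8 genes went from 99 to 58. Its S set median for the siRNA against TGF-b was 0.38 (-0.88 to 0.63), the highest of the 8 with an interval that spanned 0. At its first start, the T set region chr7:90126308-90126397 held 19 reads in NC and 27 in TGF-b (log2 ratio 0.52, -0.29 to 1.38). At an internal start, chr7:91191920-91192131 held 18, 19 and 6 reads in NC, TGF-b and siRNA of the S set, with the siRNA library below TGF-b (log2 ratio -1.42, -2.85 to -0.29). An intron 6 region, chr7:90820301-90820551, chosen for its ratio, held 0, 14 and 4 reads in the T set, at least 4.32-fold more with TGF-b, taking NC at 3 reads. In the same intron, the S set region chr7:90699979-90700120, chosen for its ratio, held 12 reads in NC and 5 in TGF-b (log2 ratio -1.70, -3.29 to -0.40).

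Dlgap1, at chr17:70276241-71126799 the shortest of the 8, had the fewest T set regions, 49 and 56, but the most per Mb in the S set for TGF-b against NC, 28.2, rank 10 of the 213 long genes. The S set siRNA table gave 14.1 per Mb, with 12 regions, rank 90. At its first start, the T set region chr17:70276172-70276247 held 17 reads in NC and 1 in TGF-b (log2 ratio -3.01, -6.48 to -1.36). Its densest T set region, in intron 3 at chr17:70721910-70722006, held 32 and 4 reads. NC was the higher library at both. The densest S set region was in intron 2 at chr17:70608867-70609099, with 14, 24 and 7 reads in NC, TGF-b and siRNA. An intron 4 region, chr17:70742761-70742834, chosen for its ratio, held 15 reads in NC and 0 in TGF-b of the T set, at least 3.48-fold less with TGF-b taken at 3 reads. An exonic region of the S set, chr17:70901759-70901866, chosen for its ratio, held 14 and 2 reads (log2 ratio -2.92, -5.38 to -1.42). The S set region nearest a start, chr17:70831642-70831717, lay 2522 bases into an internal transcript and held 5 and 7 reads in NC and TGF-b, which did not differ beyond counting error (-0.18, -1.68 to 1.47).

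Ctnna2 encodes alpha-N-catenin, which links cadherins to actin in neurons, and spans chr6:76858620-77956682. For TGF-b against NC its T set regions varied most in ratio, with quartiles of -2.50 and 1.56 around a median of -0.58 (-2.07 to 0.16). The highest read count of the 8 genes was in its intron 10, chr6:77078005-77078381, with 51, 29 and 3 reads in NC, TGF-b and siRNA of the T set. The siRNA library was below TGF-b there, with a log2 ratio of -2.45 (-4.44 to -1.19). At the gene start, chr6:77956604-77956747 held 5, 19 and 6 reads in the T set (log2 ratio of TGF-b against NC 1.85, 0.67 to 3.40). This is a stretch of the kind that the TGF-b library helped to choose, so its high value there is no finding. The S set start region, at chr6:77956664-77956807, held 15, 19 and 9 reads, with no difference beyond counting error between TGF-b and NC (-0.23, -1.17 to 0.74). Chosen for their ratio were chr6:77931898-77931977 of the T set, with 20 reads in NC against 1 in TGF-b (log2 ratio -3.24, -6.72 to -1.61), and chr6:77846528-77846623 of the S set, with 15 against 8 (-1.40, -2.68 to -0.28).

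Lrp1b and Csmd1 are large membrane proteins, an endocytic receptor of the LDL receptor family and a complement regulator. Lrp1b spans chr2:40485260-42543636. Its densest S set regions lay at its 5′ end, where chr2:42542454-42542628 held 18, 43 and 8 reads in NC, TGF-b and siRNA. The siRNA library was lower than TGF-b by more than counting error (log2 ratio -2.23, -3.43 to -1.30), whereas the interval of TGF-b against NC spanned 0 (0.67, -0.07 to 1.5). The TGF-b library had a part in choosing such stretches, so its high value is no finding. A neighbour whose window overlaps, chr2:42542823-42542962, held 44 reads in TGF-b and 7 in the siRNA library. In the T set the region nearest any start, chr2:40516074-40516148, lay 1237 bases into an internal transcript, with 0 reads in TGF-b and 10 in the siRNA library. Its densest T set region, in intron 1 at chr2:42262538-42262614, held 10 reads in TGF-b and 31 in the siRNA library (log2 ratio 2.01, 1.09 to 3.11). Also in intron 1, chr2:42250040-42250109, chosen for its ratio, held 19 reads in NC and 0 in TGF-b, at least 4.38-fold less with TGF-b taken at 3 reads. In intron 3, the S set region chr2:41819081-41819181, chosen for its ratio, held 15 and 3 reads (log2 ratio -2.59, -4.60 to -1.22). The T set median of Lrp1b for the siRNA against TGF-b was 1.45 (1.03 to 2.01), the highest of the 8.

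Csmd1, at chr8:15942537-17585297, was the densest of the 8. Its median density was 3.94 and 4.03 (T set) and 6.32 and 6.36 (S set), highest of the 8 in every table. Low regions were 9 of 80 (11.2%) and 11 of 98 (11.2%) in the T set, and 0 of 35 and 0 of 25 in the S set, where the Wilson interval reaches 9.89% and 13.3%. Its share in the T set therefore lay beside that of the active fibroblast genes (11.3% and 13%). The region with the highest density, in intron 65 of 69 at chr8:15957315-15957541, held in the T set 1 read with TGF-b and 42 with the siRNA added, a log2 ratio of 4.88 (3.32 to 8.38). In intron 2, chr8:17205594-17205672, chosen for its ratio, held 15 reads in NC and 0 in TGF-b, at least 3.48-fold lower with TGF-b taken at 3 reads. The densest S set region, in intron 59 at chr8:15969098-15969184, held 17 and 21 reads in NC and TGF-b (log2 ratio -0.26, -1.15 to 0.66), and chr8:17109623-17109716 in intron 2, chosen for its ratio, held 17 and 4 (-2.43, -4.17 to -1.16). The start of Csmd1 had a region in the siRNA table of the T set, 746 bases after it at chr8:17584519-17584583, with 13 reads in TGF-b and 6 in the siRNA library (-0.54, -2.00 to 0.69).

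**Figure D2:**
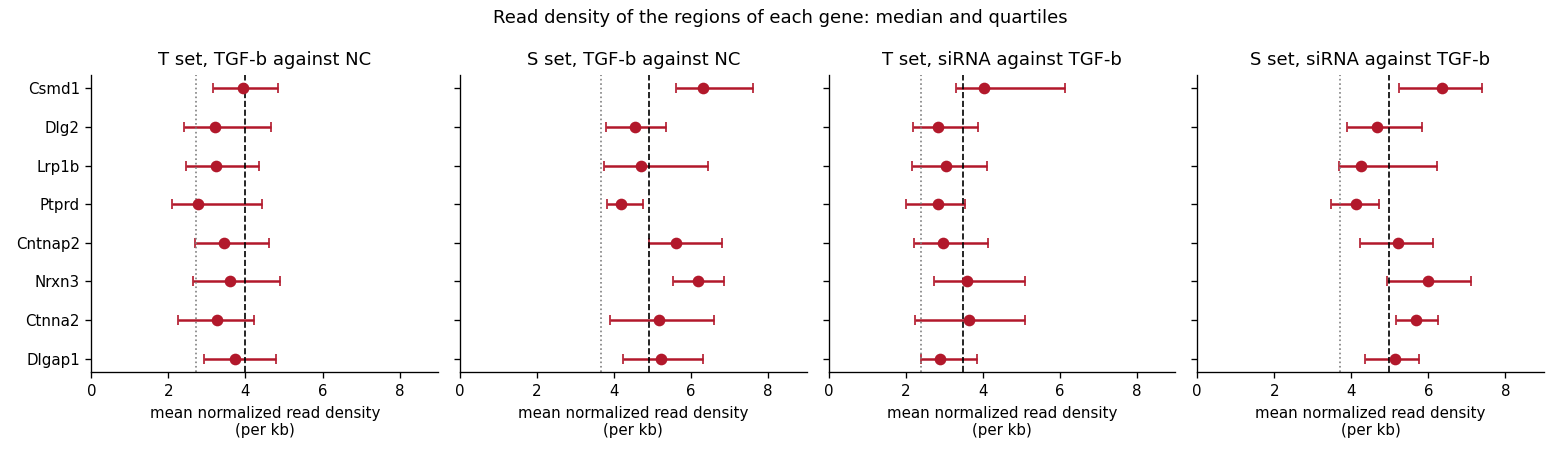
Points give the median and bars the quartiles of the mean normalized read density per kb over the regions of each gene, 1 panel per table. The dashed line is the median of all regions and the dotted line the level under which a region counts as low. Csmd1 is rightmost in every panel (3.94 in the first), and Ptprd is leftmost in both TGF-b against NC panels (2.77 and 4.19).

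**Figure D3:**
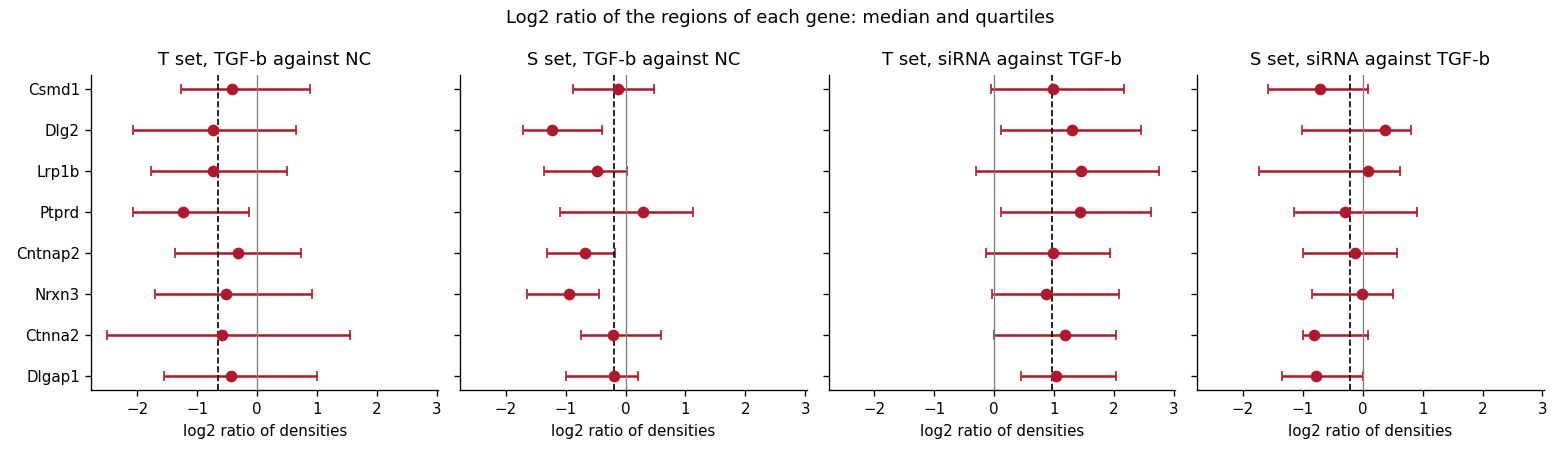
Points give the median and bars the quartiles of the log2 ratio of densities over the regions of each gene, as the later library over the earlier, with the dashed line at the median of all regions and the grey line at 0. In the T set all 8 medians are below 0 for TGF-b against NC (-1.23 to -0.32) and above 0 for the siRNA against TGF-b (0.86 to 1.45). In the S set 7 of 8 are below 0 in the first comparison and 6 of 8 in the second.

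**Figure D4:**
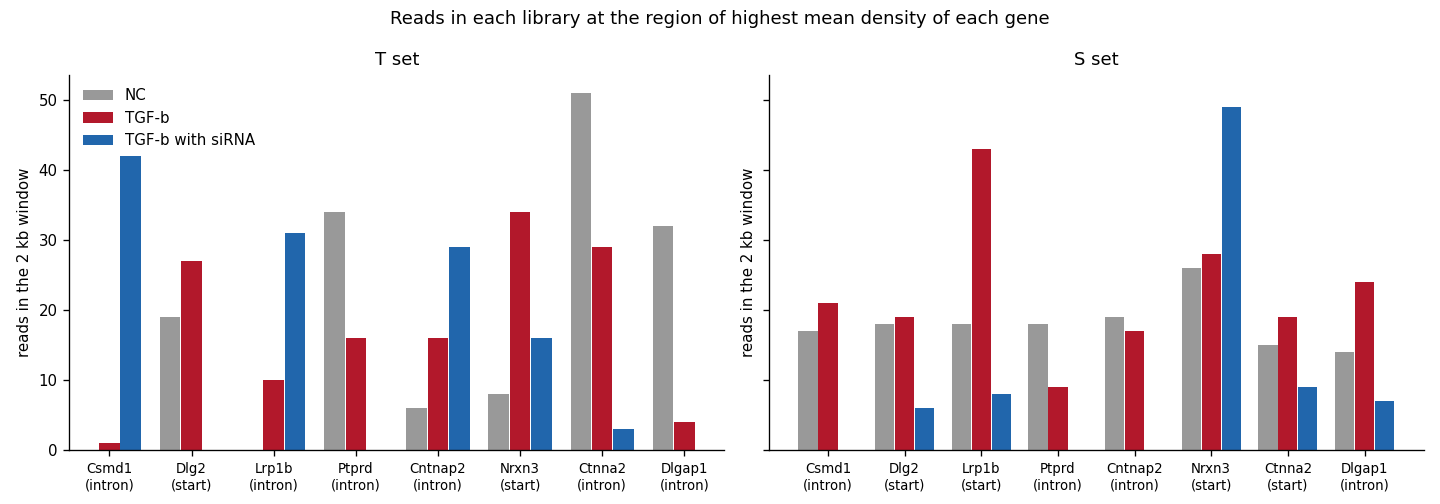
Bars give the reads in the 2 kb window of the region with the highest mean density of each gene, in NC, TGF-b and TGF-b with siRNA. A gene name is followed by start where the region lies within 3 kb of a transcription start site and by intron otherwise, and a bar is missing where the region is not in that library's table. At Nrxn3 the S set siRNA library reaches 49 reads, and at Ctnna2 the T set NC library reaches 51.

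Along the genes, regions were most frequent near the 5′ end in all 4 tables. Each gene was cut into 5 equal parts from its 5′ end, and of the T set regions inside the spans for TGF-b against NC the parts held, in that order, 25.3%, 24.2%, 14.3%, 15.9% and 20.3%. The S set shares were 27.0%, 22.8%, 17.2%, 16.5% and 16.5%. Other long genes were not placed this way. Regions within 3 kb of a start made up 2.50% of the T set regions and 3.69% of the S set regions, against 16.6% and 14.7% of all regions, 5.68% and 5.64% for the other genes of 500 kb or more, and 37.1% and 57.1% for the active fibroblast genes, which are short and had only 14 S set regions. The median distance between neighbouring regions was 9.15 kb in the T set and 27.7 kb in the S set.

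The labelled cell type was looked up at regions within 3 kb of a start. Of 7 fibroblast markers, 5 had such a region in each T set table, and 1 and 0 had one in the S set tables. Of 5 neuron markers, 4, 3, 4 and 4 had one in the 4 tables, with median reads in the deeper library between 13 and 21, beside 11 to 15 for the fibroblast markers. Of 3 cardiomyocyte markers 2 or 3 had one, and of 2 endothelial markers 2 (T set) and 1 (S set). These libraries measure chromatin association and not transcripts, so the values do not show which cells were present, and the part of other cell types in the regions of the 8 genes was not tested.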

How the data were processed

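The 6 libraries were made with a CUT&Tag kit that uses ConA beads. The submitters' processing notes name BWA 0.7.12 and mm10, whereas the study's methods name Bowtie2, GRCm39 and a caller given as Masc2. Transcript positions in the tables equalled GRCm38 in only 2.00% of 27154 transcripts, and a GRCm39 scaffold was present, so coordinates are given as GRCm39. Densities as deposited are a signal, reads plus 1 divided by the window in kb, and the authors had fitted a straight line to bring the 2 libraries of a table onto 1 scale. The tables also hold the authors' log2 ratios and p-values, which were not used.

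With the line taken out, between 99.98% and 99.99% of regions came to whole reads (tolerance 0.1). The window was 2 kb. The log2 ratio was computed from the 2 densities. Regions past 2-fold were counted, medians carry 95% rank intervals and shares Wilson intervals, and a region's log2 interval comes from the Wilson interval of its reads. A library at 0 was set to 3 reads for a fold. Each table was normalized separately, so levels were compared within a table. Library totals were not used. Gene spans run from the first to the last transcript base in the tables, and chromosome length to the last region on each. Python 3.11.15, pandas 2.3.3, numpy 2.4.6, scipy 1.17.1 and matplotlib 3.10.9 were used, and the recovery of reads was tested on simulated data.

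For each gene and set, the named regions were the one with the highest mean density, the one nearest a start within 3 kb, and the one with the largest log2 ratio of TGF-b against NC above the median density. A region chosen by more than 1 of these is described once. The members and all gene lists were chosen with earlier results of these data known. Alternatives were other fold thresholds, centring, no line, reads of 3 or fewer set to 3, other definitions of low density, introns only, denser regions only and genes weighted equally. Windows that do not overlap were added after seeing the data.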

Additional observations from a re-analysis of the deposited data

Results flagged for a closer look

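The 8 genes had a median log2 ratio of 1.14 (T set) and -0.26 (S set) when the siRNA library was set against TGF-b, on opposite sides of 0, as were the medians of all regions. The S set interval spanned 0 (-0.49 to 0.08), and the difference was not tested. Of the single genes, 6 had medians of opposite sign, but only for Csmd1 did the S set rank interval lie below 0 (-1.37 to -0.31), and for the other 5 it spanned 0. Csmd1 had 0.99 and -0.71, Ptprd 1.44 and -0.29, Cntnap2 0.99 and -0.13, Nrxn3 0.86 and -0.02, Ctnna2 1.18 and -0.81, and Dlgap1 1.03 and -0.78. For TGF-b against NC, Ptprd alone of the 8 had medians of opposite sign, -1.23 (T set) and 0.29 (S set), with an S set interval that spanned 0 (-1.10 to 0.68), and this difference was not tested either.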

How the results depend on the processing

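No paired analysis was possible because each treatment had 1 library per set. With the median of all regions as 0, the T set median for TGF-b against NC became 0.03, the S set median -0.38, and the T set median for the siRNA 0.16, with 289 regions higher and 224 lower there. Without the authors' line the S set median for TGF-b against NC was 0.00, with 54 regions higher and 58 lower, and the T set median for the siRNA 0.68. With reads of 3 or fewer set to 3, the T set medians were -0.34 and 0.77, with 213 lower regions for TGF-b and 50 for the siRNA. Among denser regions they were -0.87 and 1.26. With genes weighted equally the S set median for TGF-b against NC was -0.34. At 4-fold, 185 T set regions were lower and 7 and 31 S set regions higher and lower for TGF-b against NC, and for the siRNA 286 were higher in the T set and 10 higher and 19 lower in the S set. At 1.5-fold, 45 and 55 S set regions were higher. Under the table median lay 62.3%, 37.6%, 56.9% and 45.5% of regions, in the order T and S for TGF-b against NC, then T and S for the siRNA, and 3 or fewer reads in a library were at 59.7% and 63.6% of T set regions. The cause of these changes was not tested. Restricting to introns or to windows that do not overlap moved no median, count or share beyond its interval or 1.5 times. Few reads per region limit single ratios, and without replicates the spread between cultures is unknown.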
